A study of Mus musculus with 12 samples.

Results

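Genes of the neuromuscular junction were followed in sorted mouse muscle progenitors. The 10 genes, chosen by symbol, were Musk, Lrp4, Dok7, Chrna1, Chrnb1, Chrnd, Chrng, Chrne, Rapsn and Ache. All 10 were among the 23284 gene symbols of a table of FPKM values (fragment counts scaled by transcript length and by library size). RNA-seq covered 12 libraries, 3 in each of 4 groups. Every group carried the strain label 129P2/OlaHsd and held cells sorted as CD31- CD45- a7-Integrin+ VCAM+, so that endothelial cells and leukocytes were left out and cells with both adhesion molecules were kept. Teratoma cells were taken at 3 weeks from tumours that pluripotent stem cells had formed, which hold many tissues. Transplant cells had the same origin but had then spent 1 month in a host tibialis anterior before they were sorted anew. The embryo group came from whole E14.5 embryos, so it is not limited to limb muscle, and the adult group from total hindlimbs of 8-week-old males. The labels name no stem cell line or host strain for the teratoma and transplant groups. They also do not say whether host progenitors of the same surface type were left out of the transplant sort.

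The neuromuscular junction is the synapse where a motor axon meets a muscle fibre. Agrin from the nerve binds the receptor Lrp4, which activates the kinase MuSK, and with the adaptor Dok7 and the scaffold rapsyn this clusters acetylcholine receptors under the nerve ending. The muscle receptor is built of alpha, beta and delta subunits together with gamma in the fetus or epsilon in the innervated adult fibre. Mature junctions belong to fibres, while the cells studied here are mononuclear progenitors.

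The number of fragments per library was unknown, so no counting interval or detection floor can be given, and an exact 0 is reported only as listed. From 9495 (adult replicate 1) to 12000 (teratoma replicate 1) genes reached 1 FPKM. Embryo replicate 2 stood apart, with 74 genes listed at 0 while both other embryo libraries were at 5 FPKM or more, against 6 to 27 such genes in each of the other libraries. Changes below are differences of group means of log2(FPKM + 1) with their SE, from 1 limma model over 12699 genes, and the call threshold was an adjusted p of 0.05. This scale understates changes of low genes. The replicates are described as biological without mention of separate animals, so each p-value reflects the spread among these libraries and no more. In RNA from pooled cells, fewer cells of a type and less RNA per cell cannot be told apart. The 6 comparisons reuse the 4 groups and are not independent of each other. Scaling moved the centre of the data: the median change of all genes in adult against embryo was -0.42, and -0.042 after median-ratio scaling, and the share of called genes that were higher went from 30.0% to 49.8%.

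Of the 10 genes, 8 passed the filter of at least 1 FPKM in at least 3 libraries, and Chrne and Ache did not. The genes fell into different patterns rather than a common one, although Musk, Chrna1, Chrnb1 and Rapsn were all lowest in embryo and called higher in every other group. By group mean, Musk and Chrnb1 were highest in adult cells, Chrna1 and Rapsn in transplant cells, Chrng and Chrnd in teratoma and transplant cells, and Lrp4 in embryo cells. Not every such lead was called. Rapsn in transplant over adult and teratoma and Chrnb1 in adult over transplant missed the threshold. So did Chrnd in transplant over embryo and Lrp4 in embryo over teratoma. Dok7 did not pass the test in any comparison.

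**Figure D1:**
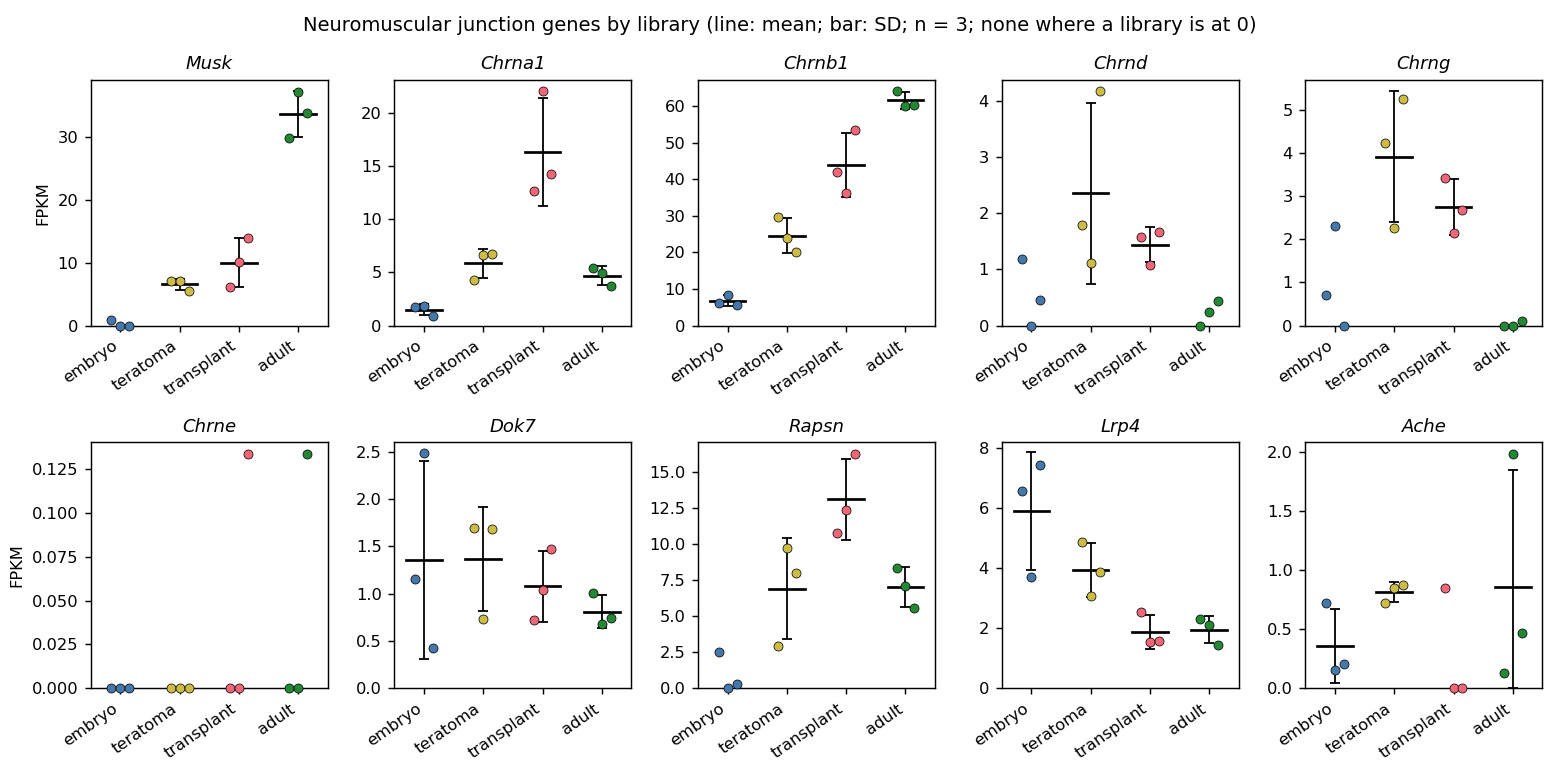
FPKM (vertical axis, linear, own scale per panel) of the 10 genes in each library (points) of the 4 groups, with group mean (line) and SD (bar, n = 3) where no library of the group is listed at 0. The adult points of Musk lie from 29.8 to 37.1, above all other points of that gene, while those of Chrng lie at or near 0.

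Musk encodes the receptor kinase that organises the postsynaptic membrane. Its gene lies on chromosome 4 from 58285960 to 58374303, plus strand, in GENCODE M21 on mm10. It was at 29.8, 37.1 and 33.8 FPKM in the adult libraries, at 6.05, 10.1 and 13.9 in transplant, at 7.02, 7.10 and 5.52 in teratoma and at 0.814, 0 and 0 in embryo. Adult libraries were the highest and embryo libraries the lowest without overlap, while teratoma and transplant overlapped. Mean adult Musk was 5.13-fold the teratoma mean and 3.35-fold the transplant mean. On the log2 scale the adult differences were 2.20 ± 0.30 from teratoma (adjusted p = 0.000148) and 1.71 ± 0.30 from transplant (adjusted p = 0.000775). Musk was also higher than in embryo by 2.62 ± 0.30 in teratoma (adjusted p = 7.98e-05), 3.11 ± 0.30 in transplant (adjusted p = 8.33e-06) and 4.82 ± 0.30 in adult (adjusted p = 1.82e-07). Since 2 embryo libraries were listed at 0, these sizes depend on the pseudocount, and with 0.1 in place of 1 they became 4.98, 5.52 and 7.33. The difference of 0.49 ± 0.30 between transplant and teratoma missed the threshold (adjusted p = 0.273), and with the pseudocount of 0.1 so did that between adult and transplant (adjusted p = 0.0539).

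Lrp4, the agrin receptor and MuSK partner, ran in the other direction. The gene lies on chromosome 2 from 91457511 to 91513779, plus strand. It was at 6.58, 3.69 and 7.43 FPKM in embryo, 4.89, 3.08 and 3.86 in teratoma, 2.53, 1.53 and 1.58 in transplant and 2.30, 2.12 and 1.43 in adult. All embryo libraries were above all transplant and adult libraries, the embryo and teratoma libraries overlapped, and so did the transplant and adult libraries. Lrp4 was lower than in embryo by a log2 change of -1.19 ± 0.28 in adult (adjusted p = 0.00335) and -1.23 ± 0.28 in transplant (adjusted p = 0.00379). Mean embryo Lrp4 was 3.03-fold the adult mean and 3.14-fold the transplant mean. After quantile normalization the adult difference was -0.52 (adjusted p = 0.123). Against teratoma, adult cells were lower by a log2 change of -0.74 ± 0.28 (adjusted p = 0.0477), with no overlap of libraries, but after quantile normalization the direction flipped to 0.020 (adjusted p = 0.958). That call was also lost after median-ratio scaling (-0.35, adjusted p = 0.304) and on leaving out any single library except embryo replicates 2 and 3 (-0.87 to -0.61, adjusted p from 0.0510 to 0.151). Transplant against teratoma gave -0.78 ± 0.28 (adjusted p = 0.0639), which passed (0.0340) once embryo replicate 2 was left out.

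Dok7 is the cytoplasmic adaptor that dimerises MuSK and keeps it active. Its gene lies on chromosome 5 from 35056766 to 35087839, plus strand. Levels were low throughout, at 1.15, 2.49 and 0.430 FPKM in embryo, 1.70, 0.734 and 1.68 in teratoma, 0.724, 1.03 and 1.47 in transplant and 1.00, 0.681 and 0.747 in adult. The groups overlapped in all 6 comparisons. The changes lay between -0.36 ± 0.33 for adult against teratoma (adjusted p = 0.387) and 0.074 ± 0.33 for teratoma against embryo (adjusted p = 0.895). On FPKM as listed, Musk and Lrp4 of the same pathway thus differed between adult and embryo in opposite directions. The Lrp4 call did not hold after quantile normalization (-0.52, adjusted p = 0.123). No change of Dok7 was detectable at this spread.

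Chrnb1, the beta subunit, was the most abundant receptor gene in every library. It lies on chromosome 11 from 69784036 to 69795943, minus strand. The adult libraries were at 64.2, 60.1 and 60.4 FPKM, transplant at 41.8, 36.3 and 53.6, teratoma at 29.7, 23.9 and 20.2 and embryo at 6.04, 8.46 and 5.67. No 2 groups overlapped, and the order was adult, transplant, teratoma and embryo. The adult mean was 9.15-fold the embryo mean, the transplant mean 6.53-fold and the teratoma mean 3.66-fold. On the log2 scale these were 3.03 ± 0.20 (adjusted p = 2.30e-07), 2.54 ± 0.20 (adjusted p = 1.76e-06) and 1.73 ± 0.20 (adjusted p = 7.64e-05). Adult exceeded teratoma by 1.31 ± 0.20 (adjusted p = 0.000290) and transplant exceeded teratoma by 0.81 ± 0.20 (adjusted p = 0.0128), the latter call being lost without transplant replicate 3 (0.66, adjusted p = 0.0539). Adult and transplant, neighbours in that order, differed by 0.50 ± 0.20 (adjusted p = 0.0597). That difference passed after median-ratio scaling (0.71, adjusted p = 0.0106) and on leaving out teratoma replicate 1, transplant replicate 3 or embryo replicate 2 (0.50 to 0.65, adjusted p from 0.0310 to 0.0487).

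Chrna1, the alpha subunit, which forms the main face of the acetylcholine binding site, did not follow the beta subunit. It lies on chromosome 2 from 73563215 to 73580338, minus strand. Transplant libraries were at 12.7, 22.1 and 14.3 FPKM, teratoma at 4.31, 6.60 and 6.72, adult at 5.45, 4.94 and 3.71 and embryo at 1.76, 1.86 and 0.888. Transplant was highest and embryo lowest without overlap, and teratoma and adult overlapped. The transplant mean was 10.9-fold the embryo mean, 2.78-fold the teratoma mean and 3.48-fold the adult mean. The matching log2 changes were 2.78 ± 0.27 for transplant against embryo (adjusted p = 8.79e-06), 1.32 ± 0.27 for transplant against teratoma (adjusted p = 0.00517) and -1.58 ± 0.27 for adult against transplant (adjusted p = 0.000660). Teratoma and adult exceeded embryo by 1.46 ± 0.27 (adjusted p = 0.00210) and 1.20 ± 0.27 (adjusted p = 0.00268). Adult and teratoma differed by -0.26 ± 0.27 (adjusted p = 0.450), a direction that flips to 0.18 after median-ratio scaling.

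Chrng and Chrne encode the gamma subunit of fetal receptors and the epsilon subunit that replaces it at the mature synapse. Chrng lies on chromosome 1 from 87204657 to 87212694, plus strand, 4586 bases beyond the end of Chrnd on the same strand, and Chrne on chromosome 11 from 70614883 to 70619216, minus strand. Chrng was at 4.23, 2.26 and 5.25 FPKM in teratoma and 3.43, 2.14 and 2.68 in transplant. It was at 0.715, 2.32 and 0 in embryo and at 0, 0 and 0.116 in adult. Every teratoma and transplant library was above every adult library, and embryo libraries overlapped both the teratoma and the adult range. Adult Chrng was lower than teratoma by a log2 change of -2.19 ± 0.39 (adjusted p = 0.000874) and lower than transplant by -1.84 ± 0.39 (adjusted p = 0.00265). Both calls held under every alternative that could be run, and with the pseudocount of 0.1 the changes were -4.88 and -4.44. Against embryo, teratoma was higher by 1.41 ± 0.39 (adjusted p = 0.0207) and transplant by 1.06 ± 0.39 (adjusted p = 0.0477), with overlapping libraries. The first was lost without teratoma replicate 1 or 3 or embryo replicate 1 or 3 (0.99 to 1.38, adjusted p from 0.0517 to 0.0745). The second was lost without any single library except teratoma replicates 2 and 3 and embryo replicate 2 (0.64 to 1.18, adjusted p from 0.0586 to 0.186). In adult against embryo the change was -0.78 ± 0.39 (adjusted p = 0.113). It reached -1.20 when embryo replicate 3 was left out (adjusted p = 0.0163).

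Chrne was listed at 0 in 10 of 12 libraries and reached 0.134 FPKM in transplant replicate 3 and 0.133 in adult replicate 3. It did not pass the filter and no fold is given. In adult replicate 3 it was listed slightly above Chrng (0.116). Within each library the 2 subunits were put in a ratio, log2((Chrng + 1)/(Chrne + 1)). Where Chrne is listed at 0, as in 10 of 12 libraries, this ratio equals log2(Chrng + 1), so its test restates the Chrng levels and does not weigh one subunit against the other. The mean ± SD over 3 libraries was 1.83 ± 0.27 in transplant, 2.25 ± 0.48 in teratoma, 0.84 ± 0.87 in embryo, and in adult -0.0074 ± 0.013. The adult values lay at or just below 0 and the teratoma and transplant values at 1.65 or above. The 4 groups differed by an exact permutation test over 15400 arrangements (F = 11.6, p = 0.00403). On leaving out 1 library, the lowest F was 8.29 without adult replicate 3 (exact permutation p = 0.0196). The highest was 25.7 without embryo replicate 2 (exact permutation p = 0.000844). For single pairs the smallest two-sided p that 3 against 3 libraries allow is 0.1. The exact permutation p was 0.1 for adult against teratoma and for adult against transplant, and 0.2 to 0.3 for the other pairs, and all 6 were 0.3 after adjustment.

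The upstream sequences of Chrng and Chrne are shown because gamma gives way to epsilon in development, and those of Chrna1 and Musk for comparison. Each holds 250 bases before the RefSeq start site (GRCm38.p6), read 5′ to 3′ on the strand of the gene. Capitals mark the E-box CAGCTG, bound by myogenic bHLH factors, and CCGGAA, the core of the N-box through which GABP and other Ets factors act on synaptic genes. The windows are chr1:87205561-87205810 for Chrng (plus strand), chr11:70619195-70619444 for Chrne (minus), chr2:73580339-73580588 for Chrna1 (minus) and chr4:58285712-58285961 for Musk (plus).
Chrng: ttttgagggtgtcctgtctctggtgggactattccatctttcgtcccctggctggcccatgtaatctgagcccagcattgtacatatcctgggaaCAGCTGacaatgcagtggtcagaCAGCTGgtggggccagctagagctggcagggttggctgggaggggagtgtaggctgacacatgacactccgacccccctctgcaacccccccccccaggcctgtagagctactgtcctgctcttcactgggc
Chrne: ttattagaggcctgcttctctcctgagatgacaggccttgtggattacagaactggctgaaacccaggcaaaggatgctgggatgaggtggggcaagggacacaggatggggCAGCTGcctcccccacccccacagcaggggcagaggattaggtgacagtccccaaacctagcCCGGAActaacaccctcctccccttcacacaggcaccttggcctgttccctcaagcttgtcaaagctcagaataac
Chrna1: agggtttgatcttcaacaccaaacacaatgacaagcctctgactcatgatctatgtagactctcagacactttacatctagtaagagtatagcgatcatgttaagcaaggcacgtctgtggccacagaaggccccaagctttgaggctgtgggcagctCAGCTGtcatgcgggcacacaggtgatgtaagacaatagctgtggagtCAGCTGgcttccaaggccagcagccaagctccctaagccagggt
Musk: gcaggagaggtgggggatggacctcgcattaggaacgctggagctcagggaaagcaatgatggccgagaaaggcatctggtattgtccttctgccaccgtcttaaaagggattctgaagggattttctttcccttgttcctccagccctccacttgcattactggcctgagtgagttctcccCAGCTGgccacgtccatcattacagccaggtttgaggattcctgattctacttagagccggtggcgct
The Chrng window lies inside the GENCODE gene, since the RefSeq start is 1154 bases downstream of the GENCODE one, and it is intronic there but for 1 base. GENCODE exons of the gene itself take 22 bases of the Chrne window, 2 of Musk and 0 of Chrna1. RefSeq windows of 300 bases were found for 7 of the 10 genes, and not for Chrnd, Rapsn and Lrp4. CAGCTG occurred 2 times in Chrng, 155 and 132 bases before the start, and 2 times in Chrna1, at 92 and 44 bases. It occurred 1 time in Musk (68 bases) and in Chrne (138 bases), and not in the windows of Chrnb1, Dok7 and Ache. Of 32851 mouse windows of that length, 16.3% hold CAGCTG and 1.90% hold it 2 or more times. The looser E-box CANNTG, which includes CAGCTG, was in all 7 and in 72.3% of windows. CCGGAA or its reverse complement TTCCGG was in Chrne alone of the 7, 76 bases before the start, and in 14.9% of windows. These matches are descriptions of letters and not evidence of binding.

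Chrnd, the delta subunit, had a pattern like that of its neighbour Chrng. It lies on chromosome 1 from 87190607 to 87200070, plus strand. It was at 1.79, 1.11 and 4.18 FPKM in teratoma and 1.57, 1.08 and 1.68 in transplant. Adult libraries were at 0, 0.236 and 0.446 and embryo libraries at 1.19, 0 and 0.457. All teratoma and transplant libraries were above all adult libraries, and embryo replicate 1 reached into their range. Adult Chrnd was lower than teratoma by a log2 change of -1.36 ± 0.37 (adjusted p = 0.00979), a call lost after quantile normalization (-0.72, adjusted p = 0.170). From transplant it fell by 1.00 ± 0.37 on that scale (adjusted p = 0.0424), a call lost without any single library except teratoma replicates 2 and 3 and embryo replicates 1 and 2 (-1.13 to -0.86, adjusted p from 0.0506 to 0.131). Teratoma exceeded embryo by 1.08 ± 0.37 (adjusted p = 0.0466), and this was lost without any single library except teratoma replicate 2 and embryo replicate 1 (0.72 to 1.17, adjusted p from 0.0563 to 0.167). The other 3 comparisons of Chrnd did not pass.

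**Figure D2:**
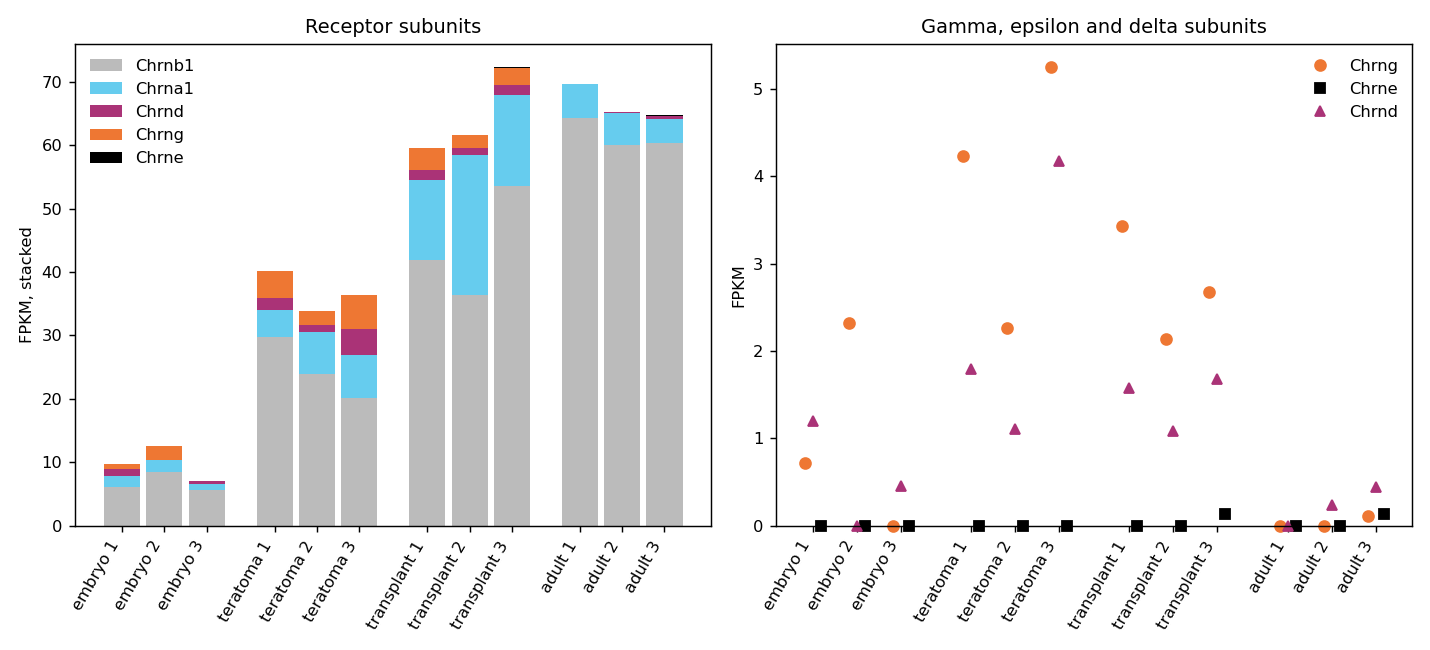
Left, FPKM of the 5 receptor subunit genes stacked per library; right, FPKM of Chrng, Chrne and Chrnd on an expanded linear axis. The stacks reach 64.8 to 69.7 in adult libraries and 7.02 to 12.6 in embryo libraries, and Chrne stays at or below 0.134.

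FPKM is scaled by transcript length, so the subunits of 1 library can be compared. The sum of the 5 subunit genes was 66.6 ± 2.70 FPKM (SD, n = 3) in adult, 64.5 ± 6.88 in transplant, 36.7 ± 3.14 in teratoma and 9.79 ± 2.81 in embryo. On FPKM as listed, adult and transplant cells thus had like sums with a different make-up. The likeness depends on the scaling. After median-ratio scaling Chrnb1, the largest part of both sums, was higher in adult than in transplant (0.71, adjusted p = 0.0106). Chrnb1 took 92.5 ± 0.624% of the sum in adult, 67.8 ± 7.89% in transplant, 66.8 ± 9.90% in teratoma and 70.0 ± 9.68% in embryo. The lowest adult share, 92.1%, was above the highest share elsewhere, 80.8% in embryo replicate 3. Chrna1 took 7.04 ± 1.14% in adult against 25.6 ± 8.90% in transplant, 16.3 ± 4.78% in teratoma and 15.2 ± 2.77% in embryo. These shares are given without a test.

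Rapsn encodes rapsyn, the cytoplasmic scaffold that holds receptors in clusters. The gene lies on chromosome 2 from 91035620 to 91045729, plus strand, 411781 bases from Lrp4. Rapsn was at 10.8, 12.3 and 16.2 FPKM in transplant, 8.36, 7.06 and 5.57 in adult, 2.96, 9.69 and 8.00 in teratoma and 2.51, 0 and 0.317 in embryo. Embryo was below all other libraries and transplant above all, with teratoma replicate 1 just over the highest embryo library. The log2 changes from embryo were 3.06 ± 0.46 in transplant (adjusted p = 0.000219), 2.25 ± 0.46 in adult (adjusted p = 0.00135) and 2.12 ± 0.46 in teratoma (adjusted p = 0.00520). With the pseudocount of 0.1 they were 4.77, 3.87 and 3.71. Transplant against teratoma (0.94 ± 0.46, adjusted p = 0.162) and adult against transplant (-0.82 ± 0.46, adjusted p = 0.170) did not pass although the libraries did not overlap. Adult and teratoma means were 6.99 ± 1.40 and 6.88 ± 3.50 FPKM.

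Ache, acetylcholinesterase, breaks down the transmitter in the synaptic cleft. Its gene lies on chromosome 5 from 137287519 to 137294466, plus strand. It was at 0.722, 0.150 and 0.201 FPKM in embryo, 0.720, 0.850 and 0.876 in teratoma, 0.850, 0 and 0 in transplant and 0.132, 1.98 and 0.466 in adult. Only adult replicate 2 reached 1 FPKM, so Ache was not tested and the groups overlap.

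**Figure D3:**
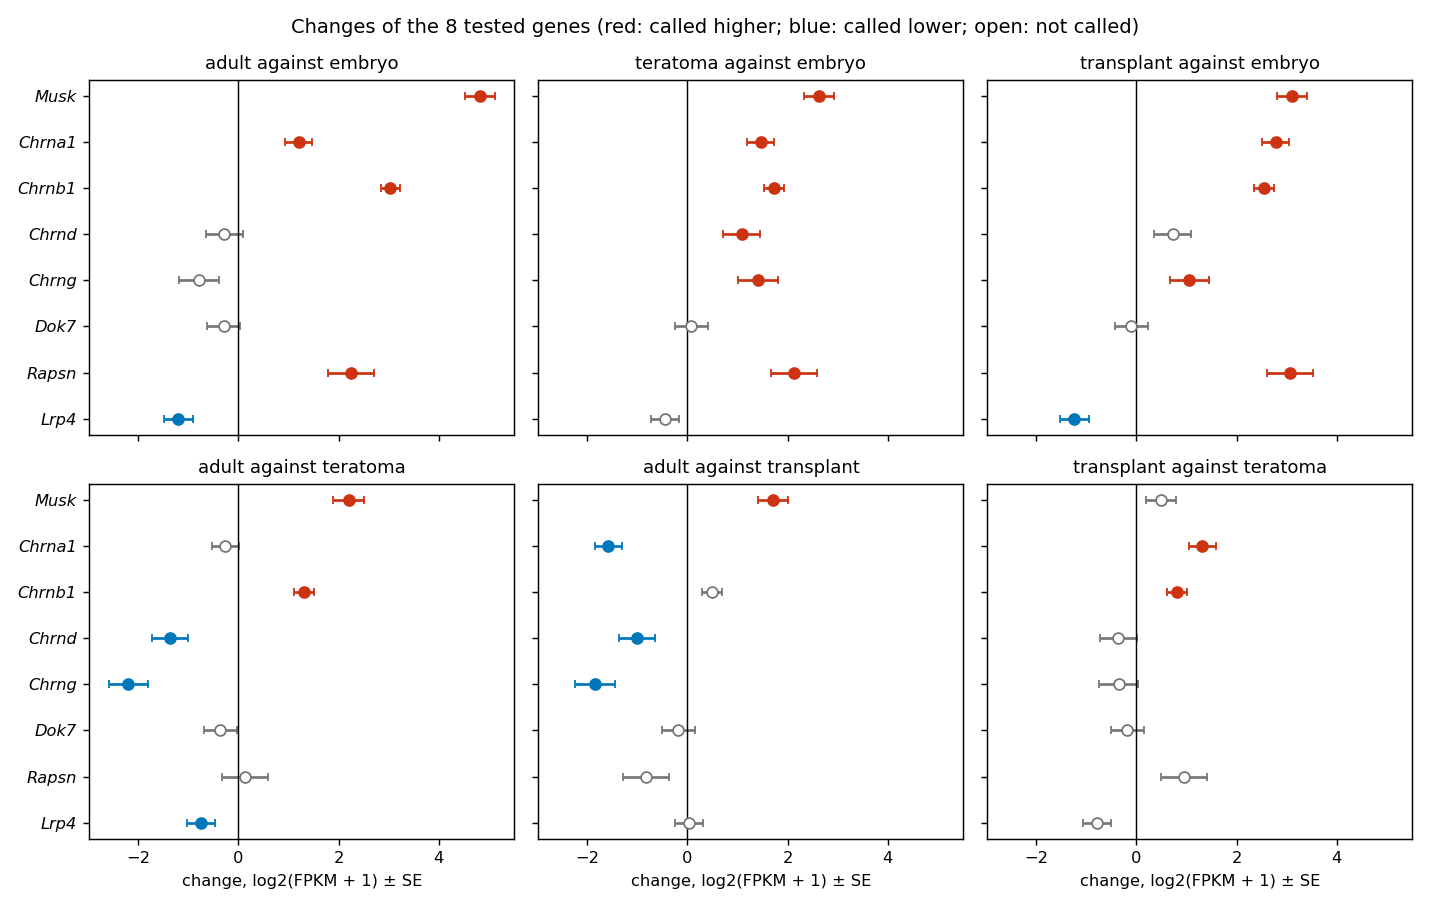
Differences of group means on the log2(FPKM + 1) scale ± SE (horizontal axis) for the 8 genes tested, 1 panel per comparison; red filled points were called higher in the group named first, blue filled points lower, open points not called. Musk is called higher in 5 of the 6 panels and Dok7 in none.

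By comparison, adult against embryo had 4 of the 8 tested genes higher and 1 lower, with a median change of 0.46 against -0.42 over all tested genes. Of all genes, 52.8% were called in that comparison, 15.8% higher and 36.9% lower. Teratoma against embryo had 6 higher and 0 lower (median 1.44 against 0.0057), where 26.0% of all genes were called, 15.5% higher and 10.6% lower. The 2 of those 6 that fell away most easily were Chrnd and Chrng, and without embryo replicate 2 the count was 5. Transplant against embryo had 5 higher and 1 lower (median 1.80 against -0.24), where 42.5% of all genes were called, 14.9% higher and 27.6% lower. Since the filter keeps genes that are high in at least 1 group, these counts describe the genes that passed and are no test of the group.

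Adult against teratoma had 2 higher (Musk and Chrnb1) and 3 lower (Chrnd, Chrng and Lrp4), with a median of -0.31 against -0.50 over all genes. There 45.4% of all genes were called, 8.94% higher and 36.4% lower. Adult against transplant had 1 higher (Musk) and 3 lower (Chrna1, Chrnd and Chrng), with a median of -0.50 against -0.23, where 44.2% of all genes were called, 16.9% higher and 27.3% lower. Transplant against teratoma had 2 higher (Chrna1 and Chrnb1) and 0 lower, with a median of 0.16 against -0.28, where 22.6% of all genes were called, 4.18% higher and 18.5% lower. Libraries of the 2 groups did not overlap for 5 of the 8 genes in adult against embryo (58.5% of all genes), 4 in teratoma against embryo (37.4%), 5 in transplant against embryo (50.3%), 5 in adult against teratoma (58.4%), 6 in adult against transplant (57.6%) and 4 in transplant against teratoma (41.6%). These counts lie close to the background and are no result about the 8 genes.

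Across the 12 libraries the levels of some of these genes ran together. As a description over libraries that share groups, the Pearson r of log2(FPKM + 1) was 0.95 for Musk and Chrnb1, 0.87 for Chrna1 and Rapsn and 0.75 for Chrnd and Chrng. Lrp4 ran against Chrnb1 (r = -0.86) and Musk (r = -0.79). Among all other tested genes, those most like Musk were Zhx3 (r = 0.98), Aff1 (0.98) and Pion (0.98), and those most like Chrnb1 were Bag3 (0.99), Zbtb20 (0.98) and Drp2 (0.98). Mean Bag3, a chaperone cofactor of muscle, was at 354 FPKM in adult, 289 in transplant, 155 in teratoma and 58.7 in embryo, the same order as Chrnb1. Chrna1 was most like Adamtsl3 (0.97), Cilp (0.97) and Ifngr1 (0.96), and Rapsn most like Ebp (0.98), Htra3 (0.96) and Fxyd1 (0.95). Among the genes most like Chrng were Prcp (0.93) and Ifi27l2a (0.93), and Chrnd was most like Ltbr (0.90), Dhrs7 (0.90) and Fcer1g (0.89). Lrp4 was most like Ibsp (0.96), Stard7 (0.95) and Fanca (0.95), and Dok7 most like Mavs (0.86), Dynlt1c (0.83) and Zfp160 (0.83).

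Ligands and matrix partners of the pathway were read beside the receptors. Agrn, the gene of agrin, was at 33.5, 38.3 and 70.2 FPKM in embryo, 30.6, 35.9 and 28.9 in teratoma, 20.2, 19.5 and 18.2 in transplant and 6.12, 5.63 and 6.81 in adult. Adult libraries were lowest and transplant next lowest without overlap, so Agrn was lowest in adult, where Musk was highest. Between embryo and teratoma, Agrn overlapped, while Musk was higher in teratoma without overlap. Between teratoma and transplant, Musk overlapped and Agrn did not. Adult Agrn fell by a log2 change of -2.68 ± 0.23 from embryo (adjusted p = 2.13e-06). Lamb2, the synaptic laminin beta chain, was higher in adult than in embryo by 1.19 ± 0.15 (adjusted p = 4.62e-05). Its change from embryo was larger in transplant (1.96 ± 0.15, adjusted p = 1.83e-06), which also exceeded teratoma (1.14 ± 0.15, adjusted p = 0.000430). The laminin alpha chain gene Lama4 was lower in adult than in embryo by 3.00 ± 0.21 on the same scale (adjusted p = 4.23e-07). Of 10 tested ligand and matrix genes, 1 was higher and 4 lower in adult against embryo, with a median of -0.45. Over all genes 15.8% were higher and 36.9% lower, with a median of -0.42, so these counts are near the background. Of 25 tested MuSK pathway partners, 5 were higher and 12 lower (median -0.42, the same as over all genes), among them the neuregulin receptor genes Erbb3 (-2.52 ± 0.35, adjusted p = 8.11e-05) and Erbb2 (-1.67 ± 0.30, adjusted p = 0.000613). Of 5 glycosylation genes linked to congenital myasthenia 0 were higher and 1 lower in adult against embryo, and of 4 tested receptor assembly genes 1 was higher and 0 lower, counts too small to set against the background. Of the 11 other nicotinic subunit genes only Chrna4 and Chrna7 passed the filter.

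Scaffold genes of the postsynaptic membrane were more often higher than lower in the comparisons with embryo, and not in the others. Of 16 tested, 8 were higher and 3 lower in adult against embryo (median 0.65 against -0.42 over all genes), where 15.8% of all genes were higher and 36.9% lower. In teratoma against embryo 5 were higher and 0 lower (all genes 15.5% and 10.6%), and in transplant against embryo 7 and 3 (all genes 14.9% and 27.6%). Adult against transplant had 1 higher and 6 lower (all genes 16.9% and 27.3%), adult against teratoma 3 and 4 (8.94% and 36.4%) and transplant against teratoma 2 and 2 (4.18% and 18.5%). The lists were chosen with earlier results of these data known, and only genes that passed the filter are counted. Counts of this and the other lists thus describe the tested genes and are no test of a list. Dmd, the dystrophin gene, was at 9.99, 9.91 and 12.7 FPKM in adult, 3.03, 4.28 and 3.79 in transplant, 2.24, 1.64 and 1.08 in teratoma and 0.57, 0.65 and 0.57 in embryo. Its 4 groups did not overlap and stood in the order of Chrnb1. Dag1, which encodes dystroglycan, was highest in transplant at 360, 354 and 441 FPKM, as Rapsn was, against 170, 165 and 121 in adult (-1.35 ± 0.22 on the log2 scale, adjusted p = 0.000403).

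**Figure D4:**
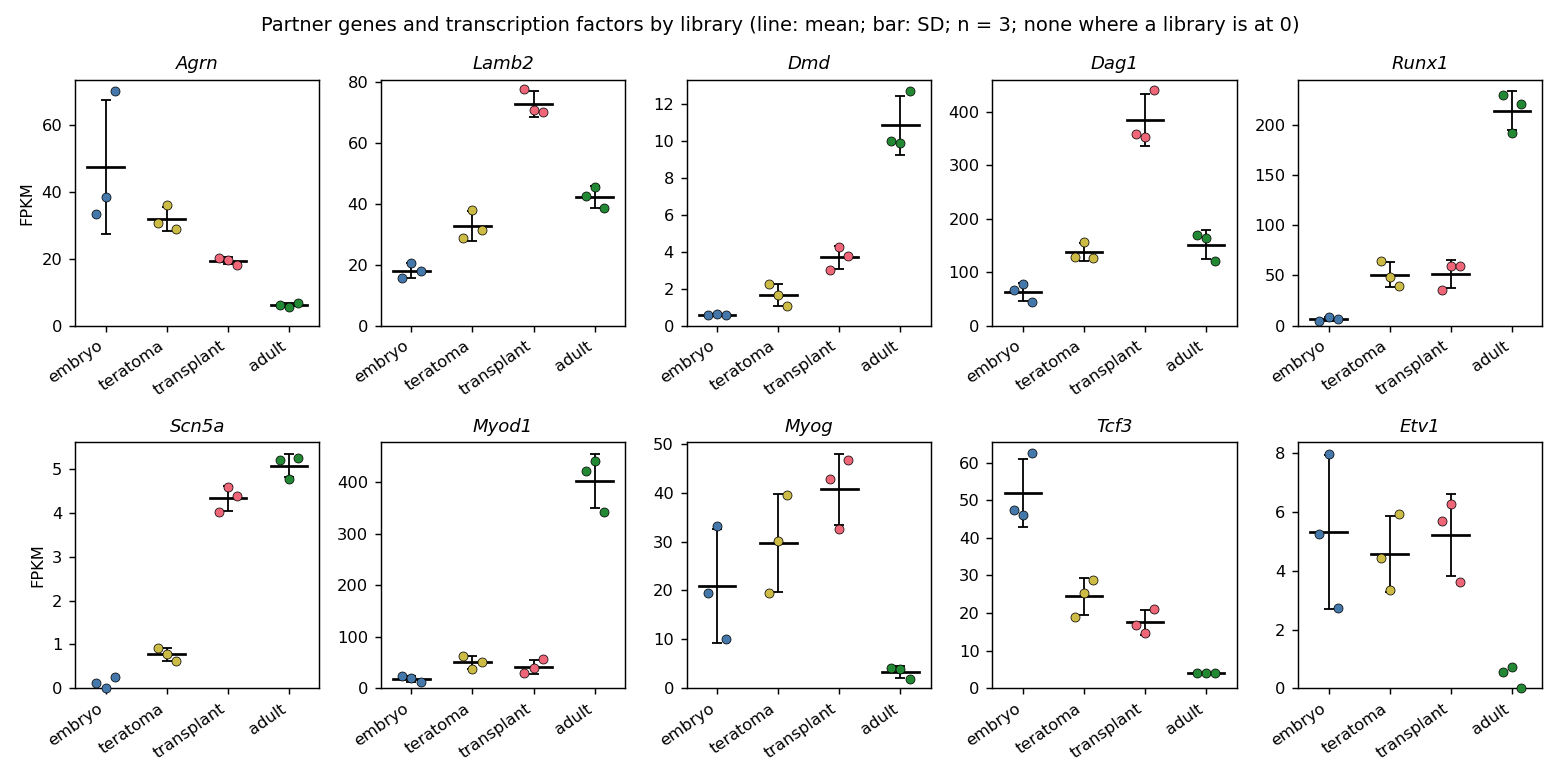
FPKM (vertical axis, linear, own scale per panel) of 10 partner genes and transcription factors in each library (points), with group mean (line) and SD (bar, n = 3) where no library of the group is listed at 0. Adult points of Agrn, Tcf3 and Myog lie below those of all other groups, and adult points of Runx1 and Myod1 above.

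Transcription factors that act on junction genes were read next. Of 9 tested genes that respond to denervation or activity, 7 were higher and 1 lower in adult against embryo (median 2.44 against -0.42 over all genes), where 15.8% of all genes were higher and 36.9% lower. In teratoma against embryo 8 were higher and 0 lower (all genes 15.5% and 10.6%), a count that was 5 without teratoma replicate 1 or 2 or embryo replicate 1 or 2. In transplant against embryo 6 were higher and 0 lower (all genes 14.9% and 27.6%). Runx1, which rises in denervated muscle, was at 229, 192 and 220 FPKM in adult, 35.2, 59.6 and 58.8 in transplant, 63.7, 48.1 and 39.5 in teratoma and 4.30, 8.45 and 6.27 in embryo. Its adult libraries were highest and its embryo libraries lowest, as for Musk. Of 14 tested E-box factors and their antagonists, 3 were higher and 10 lower in adult against embryo (median -1.38), beside the same 15.8% and 36.9% over all genes. Myod1, a myogenic factor that binds E-boxes, was at 423, 442 and 343 FPKM in adult, and its change from embryo was 4.45 ± 0.29 (adjusted p = 2.32e-07). Myog, the factor of terminal differentiation, was at 4.08, 4.03 and 1.97 in adult and lower than embryo by a log2 change of -2.22 ± 0.38 (adjusted p = 0.000406). Myog and Chrng were both lower in adult than in transplant, Myog by a log2 change of -3.28 ± 0.38 (adjusted p = 4.68e-05). Of 7 tested genes linked to the N-box and synaptic nuclei, 0 were higher and 4 lower in adult against embryo (median -0.77), against 15.8% and 36.9% of all genes. Etv1 was among the lower ones (-2.10 ± 0.35, adjusted p = 0.000340).

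Markers of cells other than quiescent progenitors moved with some of these results. The 9 markers of fusing myocytes summed to 4.94 to 9.87 FPKM in adult, 79.5 to 103 in transplant, 102 to 159 in teratoma and 94.3 to 175 in embryo, and 8 of 9 were lower in adult than in teratoma and 7 of 9 lower than in transplant. Of all genes, 36.4% were lower in adult than in teratoma and 27.3% lower than in transplant. Chrng and Chrnd were likewise lower in adult than in teratoma and transplant. In embryo the sum of these markers was within or above the transplant range, and Chrng was at 0.715, 2.32 and 0 FPKM. Marker by marker, 5 of 9 were higher in transplant than in embryo and 2 lower (all genes 14.9% and 27.6%). In teratoma 6 of 9 were higher than in embryo and 0 lower (all genes 15.5% and 10.6%). Gm7325 (myomixer), a defining marker of fusing myocytes, was listed at 0 in all embryo libraries and in adult replicates 1 and 2. The 12 fibre markers summed to 16.1 to 26.7 in adult, 73.6 to 90.6 in transplant, 54.6 to 123 in teratoma and 5.34 to 9.73 in embryo. Of 9 tested, 7 were higher in transplant than in embryo (14.9% of all genes), as were Chrna1, Rapsn and Musk. In adult against transplant 0 were higher and 6 lower (all genes 16.9% and 27.3%), where Musk was higher, Chrna1 lower and Rapsn not called. In adult against teratoma 0 were higher and 5 lower (all genes 8.94% and 36.4%), where Musk was higher and Chrna1 and Rapsn were not called. Ckm was at 0 in all embryo libraries. The 8 Schwann cell markers summed to 31.3 to 47.6 in adult, 2.04 to 8.63 in transplant, 10.2 to 11.1 in teratoma and 13.7 to 38.9 in embryo. The 4 fibroblast markers summed to 2449 to 4012 in transplant, where Chrna1 and Rapsn were highest, 1147 to 2142 in teratoma, 1157 to 1674 in embryo and 585 to 842 in adult. The satellite cell gene Pax7 was present in every library, from 8.24 FPKM in adult replicate 1 to 54.8 in transplant replicate 3. The 7 satellite cell markers summed to 110 to 120 in embryo, 262 to 356 in teratoma, 318 to 422 in transplant and 257 to 305 in adult. All 7 were higher than embryo in teratoma (15.5% of all genes) and in transplant (14.9%). In adult 5 were higher and 1 lower, beside 15.8% and 36.9% of all genes. The lower one was Pax7 (-0.58 ± 0.19, adjusted p = 0.0238). The 7 include the genes of the adhesion molecules used in the sort. The sum of the 7 markers was lowest in the embryo libraries, as were Musk, Chrna1, Chrnb1 and Rapsn. Calcr was listed at 0 in embryo replicates 2 and 3. Neuron markers (10 genes) summed to at most 12.2 FPKM in a library and endothelial markers (4 genes) to 6.37 to 35.8, the highest being in teratoma. Leukocyte markers (3 genes) reached 19.4 in teratoma, and erythroid markers (4 genes) summed to 120 to 1463 in embryo and at most 42.0 elsewhere. The part of such cells in the levels of the junction genes was not tested.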

How the data were processed

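Sorted mouse cells of 4 groups, 3 libraries each, were measured by RNA-seq. Per the labels' protocols, collagenase II and dispase freed the cells, RNA was treated with DNase I, and libraries used the SMARTer Stranded Total RNA-seq kit for Pico input. Per the submitters' processing notes, TopHat 0.7 and Cufflinks 2.2.1.0 were used beside CASAVA 1.8.2 and Partek, on build mm10, with no role stated. Not given in the sources used here are the annotation, read counts and any use of strand. Per the file headers, the deposited table holds FPKM, 1 value for each symbol in each library. Its 23746 entries held 462 repeats of 240 symbols, which were summed to 23284 symbols, and no column was without a sample. The low values were not whole multiples of 1 read, so depth is unknown.

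The 12699 genes that reached 1 FPKM in 3 or more libraries were fitted on log2(FPKM + 1) in limma 3.58.1 (R 4.3.3), with 1 linear model over 4 groups, 8 residual degrees of freedom and an intensity trend. Benjamini-Hochberg adjustment ran over all of these genes within each of 6 comparisons. The Chrng to Chrne ratio was tested by exact permutation, with all arrangements listed in Python 3.11.15 with numpy 2.4.6. On simulated data for adult against embryo over 12699 genes, 29% of 100 genes changed by 1 and 80% of 100 changed by 2 on the log2 scale were recovered, and 5 unchanged genes were called. The changed genes were a far smaller share than the 52.8% called in the data, so the adjustment was stricter there. They were drawn from genes with a mean log2(FPKM + 1) above 2, so low members such as Chrnd, Chrng and Dok7 are not covered.

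The members and the 18 other gene lists were chosen with earlier results of these data known. All members are named, and other lists name at most 3 called genes per direction and comparison with a group mean of at least 2 FPKM, plus Pax7, Myod1, Myog and Agrn. Ckm as a marker listed at 0, and Chrna4 with Chrna7, were named after their values were seen. Genes are named from the 3 with the highest correlation to each tested member, and some items under these rules are not reported here. Coordinates came from GENCODE M21 and upstream sequences from RefSeq. Exons of Ache share 2.12% of their bases, and those of Rapsn 4 bases, with genes on the opposite strand. Results were recomputed without each single library, with a replicate block, with quality weights per library, with only the 2 groups of a comparison, with quantile or median-ratio scaling, with no filter or one at a mean of 5 FPKM, with a pseudocount of 0.1, and with a minimum log2 change of 1.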

Additional observations from a re-analysis of the deposited data

How the results depend on the processing

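Of 48 member changes tested, 28 were called. Of these, 19 kept their direction and call under every alternative that could be run, and 9 lost the call under at least 1, while 4 of the uncalled ones gained a call. The count of called members kept within 1.5 times its value except in 4 settings. Adult against teratoma went from 5 to 2 with a mean of at least 5 FPKM, where 4 members were tested, and to 3 after quantile normalization. Transplant against teratoma went from 2 to 1 with a log2 change of at least 1. Leaving out 1 library gave counts of 5 to 6 for adult against embryo, 4 to 6 for teratoma against embryo, 5 to 6 for transplant against embryo, 4 to 5 for adult against teratoma, 3 to 5 for adult against transplant and 1 to 3 for transplant against teratoma. The 1 came without transplant replicate 3, the fourth of these settings. F of the Chrng to Chrne ratio ran from 8.29 to 25.7.

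Changed directions concern members that were not called, with the exception of Lrp4 in adult against teratoma (0.020 after quantile normalization), and the cause was not tested. After quantile normalization Dok7 gave 0.26 in adult against embryo, -0.24 in teratoma against embryo, 0.50 in adult against teratoma, 0.28 in adult against transplant and 0.22 in transplant against teratoma. Chrna1 gave 0.32 in adult against teratoma and Chrnd 0.0046 in adult against embryo. After median-ratio scaling Dok7 gave 0.043 in transplant against embryo and Chrna1 0.18 in adult against teratoma. Library quality weights gave -0.065 for Rapsn in adult against teratoma. Leaving out single libraries gave ranges that cross 0 for Dok7 against embryo (adult -0.60 to 0.042, teratoma -0.24 to 0.41, transplant -0.42 to 0.23). The same holds for Chrnd in adult against embryo (-0.56 to 0.0076) and transplant against teratoma (-0.65 to 0.0017), Rapsn in adult against teratoma (-0.31 to 0.41) and Lrp4 in adult against transplant (-0.046 to 0.20).

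Correlations of deviations from the group mean ran from -0.095 to 0.096 for libraries with the same replicate number. For different numbers they ran from -0.10 to 0.14. These values gave no sign of pairing, but with groups of 3 libraries they cannot exclude it. With the replicate number as a block, transplant against embryo had 5 called members in place of 6, Chrng being lost (1.06, adjusted p = 0.0729), the other counts were the same, and the exact permutation p of the 4-group ratio was 0.0174. Unknown depth limits the low genes Chrnd, Chrng, Chrne, Dok7 and Ache most.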
